A study of Mus musculus with 6 samples.

Results

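Long noncoding RNAs were followed in immature mouse thymocytes with and without the leukaemia gene TLX3. The group was defined as 7 transcripts, namely Malat1, Neat1, Firre, Kcnq1ot1, Meg3, Gas5 and Snhg1. Each was represented by its probe set with a single gene symbol and the highest mean over the 6 arrays. The platform annotation used here names such a probe set for 4 of the 7, Malat1, Firre, Meg3 and Gas5, out of 19937 genes measured in all, while Neat1, Kcnq1ot1 and Snhg1 were not analysed here. The 7 were chosen by their names with the differences between these same arrays already known, so the values of the 4 are given as a description. No p-value is given for them, and where a call rule is applied to them it serves to count them beside all genes and is no independent test.

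Transcript levels of double-negative (DN) thymocytes, the T-cell precursors that carry neither CD4 nor CD8, were measured on 6 Affymetrix arrays in 2 groups of 3. The Rag2-/- group, labelled Control, holds DN cells of mice without the recombinase Rag2, whose thymocytes cannot rearrange antigen receptor genes and stop at the DN stage. The TLX3 group, labelled DNTLX3+ and Tumoral, holds DN cells sorted from wild-type mice, given the retroviral vector pMSCV-GFP-TLX3 and kept for 4 to 5 weeks on irradiated OP9-DL1 stroma, which presents a Notch ligand, in medium with IL-7 and Flt3L. The protocol names C57Bl/6 thymi of mice aged 4 to 6 weeks without parting the genotypes, and it leaves unclear whether cells of the Rag2-/- group went through culture. Genotype, virus and possibly culture thus differ together between the groups, and no array of cells given the empty vector was analysed here. The labels do not say that replicates are separate mice or cultures, so the spread between arrays may be technical.

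Long noncoding RNAs act as transcripts, without a protein product. Malat1 is an abundant RNA that stays in the nucleus at speckles, the stores of splicing factors, and Neat1, transcribed from the adjoining locus, is the scaffold of paraspeckles. Firre is an X-linked RNA of repeated units that binds the nuclear matrix protein hnRNP U and takes part in holding chromatin in place, and it has a known role in blood cell development. Kcnq1ot1 and Meg3 come from imprinted domains, where Kcnq1ot1 silences its neighbours on the paternal chromosome and Meg3 is made from the maternal one. Gas5 and Snhg1 are host genes of small nucleolar RNAs (snoRNAs), which guide the modification of ribosomal RNA. Their introns hold the snoRNAs, and their spliced exons are degraded by nonsense-mediated decay when they are translated. Gas5 was first isolated from growth-arrested cells and is linked to growth arrest in T cells.

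The start regions of the 3 members that were lower in the TLX3 arrays are printed to show what sequence lies where transcription begins. They come from RefSeq on GRCm38.p6 and run 5′ to 3′ from 250 bases before the start to 50 bases after it. The Malat1 window lies at chr19:5802623-5802922 on the minus strand, the Firre window at chrX:50635272-50635571 on the minus strand, and the window of the downstream Gas5 start at chr1:161034916-161035215 on the plus strand. Capitals mark matches, on either strand, to the GC box GGGCGG, the CCAAT box CCAAT, the TATA box TATAAA, the E-box CACGTG, the CRE core TGACGT, the RBPJ core TGGGAA and the RUNX core TGTGGT. They also mark a pyrimidine run that begins with C at the start itself.
Malat1: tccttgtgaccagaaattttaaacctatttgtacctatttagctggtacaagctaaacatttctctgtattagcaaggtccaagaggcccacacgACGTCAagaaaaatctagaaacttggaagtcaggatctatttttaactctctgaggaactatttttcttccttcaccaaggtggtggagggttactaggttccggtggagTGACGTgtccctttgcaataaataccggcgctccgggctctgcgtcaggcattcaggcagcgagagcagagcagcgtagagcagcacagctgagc
Firre: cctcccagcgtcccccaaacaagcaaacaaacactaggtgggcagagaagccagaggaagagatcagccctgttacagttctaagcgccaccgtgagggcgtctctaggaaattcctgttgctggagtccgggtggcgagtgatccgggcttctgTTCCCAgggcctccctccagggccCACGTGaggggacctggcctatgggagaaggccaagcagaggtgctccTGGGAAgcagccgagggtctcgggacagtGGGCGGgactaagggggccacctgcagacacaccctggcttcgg
Gas5: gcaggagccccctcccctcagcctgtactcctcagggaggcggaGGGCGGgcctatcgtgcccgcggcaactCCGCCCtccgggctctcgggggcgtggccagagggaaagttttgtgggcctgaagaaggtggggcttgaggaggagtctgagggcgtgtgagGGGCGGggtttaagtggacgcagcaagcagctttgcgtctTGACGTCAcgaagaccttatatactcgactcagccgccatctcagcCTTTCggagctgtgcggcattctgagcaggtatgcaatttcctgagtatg

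No motif stood in all 3 windows, but the CRE core was in those of Malat1 and Gas5 and the GC box in those of Firre and Gas5. Malat1 held 2 CRE cores, which begin 155 and 45 bases before the start, and none of the other 6 motifs. The downstream Gas5 window held TGACGTCA, which reads as the CRE core on both strands and begins 46 bases before the start, together with 3 GC boxes. The upstream Gas5 window, not printed, held 5 GC boxes and 1 RBPJ core, but no CRE core and no pyrimidine run at its start. Firre held 1 GC box, 1 E-box and 2 RBPJ cores and no CRE core. The CRE core stood in 7.51% of the 32851 start windows in the table, the GC box in 35.7%, the E-box in 7.15% and the RBPJ core in 25.6%. The CRE core was also in the upstream Meg3 window and in that of Kcnq1ot1, so it did not part the members that were lower from Meg3, whose groups overlapped. Transcription of Gas5 from the downstream start begins with 5 pyrimidines (CTTTC), the kind of start that messages of the translation machinery carry. Of all windows, 2.51% began with C and at least 4 more pyrimidines. A match is a run of letters and does not show that a factor binds there.

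Firre showed the largest difference of the 4. Its log2 expression values were 9.97, 10.06 and 10.23 in Rag2-/- replicates 1, 2 and 3, and 6.91, 6.78 and 7.80 in TLX3 replicates 1, 2 and 3. Every TLX3 array lay clearly below every Rag2-/- array, and TLX3 replicate 3 stood above the other two of its group. The means were 10.09 ± 0.14 and 7.16 ± 0.56 (SD, n = 3 in each group), and the log2 difference, TLX3 minus Rag2-/- as throughout, was -2.92 ± 0.25 (SE), a 7.59-fold lower level. Both means were above the array medians, which ran from 6.22 to 6.35 and below which a value may be background. Among all genes, 0.15% had a difference as low. Without TLX3 replicate 3 the difference was -3.24.

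Malat1 came next. It stood at 12.47, 12.18 and 12.37 in the Rag2-/- arrays and at 9.97, 10.11 and 10.54 in the TLX3 arrays. The groups did not overlap, and the lowest Rag2-/- array lay well above the highest TLX3 array. The log2 difference was -2.13 ± 0.17 (SE), a 4.39-fold lower level, and 0.40% of all genes had a difference as low. A further probe set that the annotation assigns to both Malat1 and Ramp2, a receptor accessory protein, read 13.79, 13.77 and 13.81 in the Rag2-/- arrays and 12.92, 13.17 and 13.19 in the TLX3 arrays. There too the groups did not overlap, but the difference was smaller, at -0.70 ± 0.13 (SE). Its signal cannot be assigned to either gene.

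Gas5 was lower by less, and its probe sets gave unequal sizes. Probe set 10351026, the brightest, read 12.23, 12.24 and 12.06 in the Rag2-/- arrays and 11.30, 11.45 and 11.53 in the TLX3 arrays, with a log2 difference of -0.75 ± 0.13 (SE), a 1.68-fold lower level. Probe set 10351035 read 9.41, 9.53 and 9.41 against 7.91, 7.58 and 7.75, with a difference of -1.71 ± 0.13 (SE). Probe set 10351037 read 11.60, 11.55 and 11.53 against 11.30, 11.17 and 10.84 (-0.46 ± 0.15 SE). Probe set 10351039, the dimmest, ran from 6.94 to 7.23 against 6.15 to 6.81 (-0.67 ± 0.19 SE). In all 4 the TLX3 arrays lay below the Rag2-/- arrays, with no overlap. Within an array a constant shift between arrays cancels, while a difference in signal range does not. The distance of probe set 10351035 from 10351026 was -2.72 ± 0.09 (SD, n = 3) among Rag2-/- arrays and -3.68 ± 0.26 among TLX3 arrays. The probe sets thus changed unequally. Which exons or introns the 4 probe sets cover was not analysed here.

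Meg3 did not separate the groups. It read 5.10, 5.29 and 5.53 in the Rag2-/- arrays and 6.05, 5.63 and 5.09 in the TLX3 arrays, with the lowest value of all in TLX3 replicate 3. Both means, 5.31 ± 0.21 and 5.59 ± 0.48 (SD, n = 3), were under the array medians. The log2 difference was 0.28 ± 0.23 (SE), and it ran from 0.05 without TLX3 replicate 1 to 0.53 without TLX3 replicate 3. At this level a true difference may not be detectable.

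**Figure D1:**
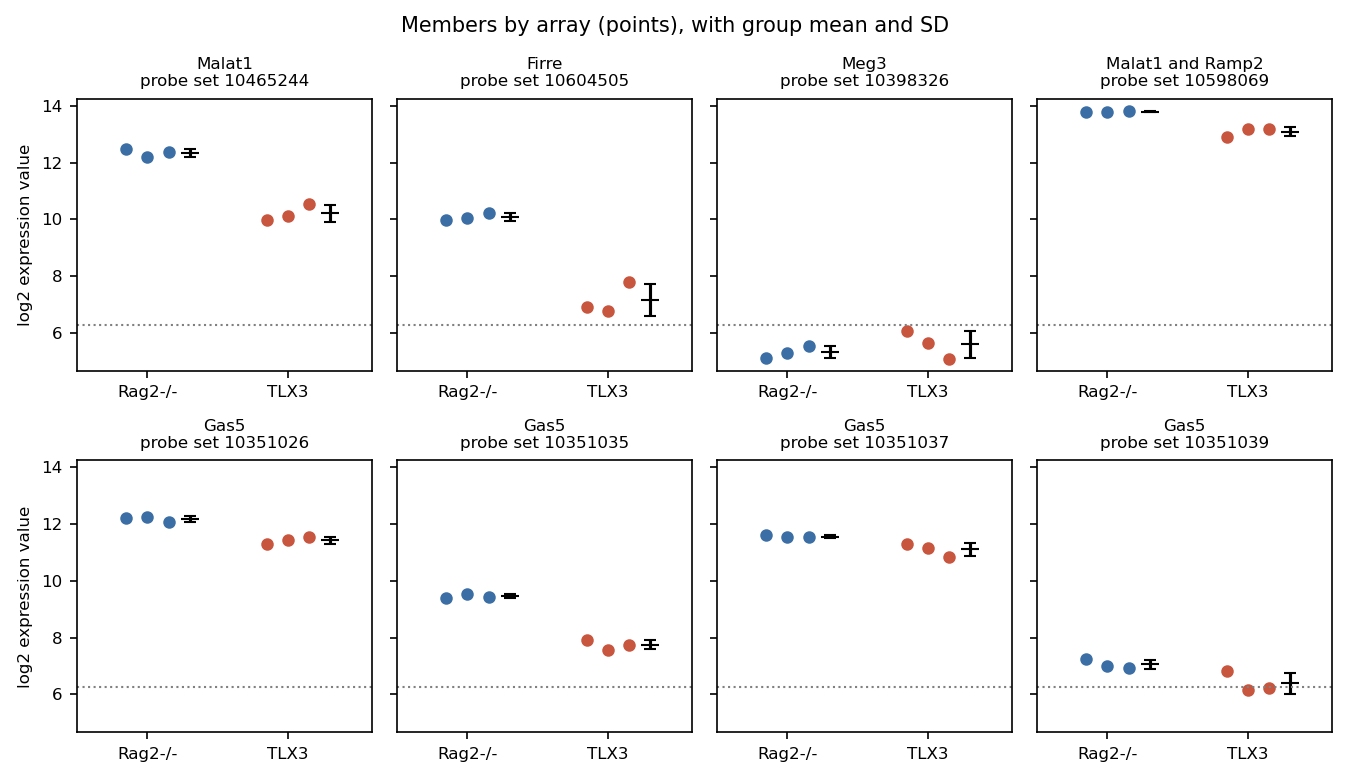
Each panel plots the log2 expression value (vertical axis) of 1 probe set on the 3 Rag2-/- and the 3 TLX3 arrays (points, replicates 1 to 3 from left to right), with the group mean and SD beside them; the dotted line is the mean of the array medians. Firre, Malat1 and the 4 probe sets of Gas5 lie lower in every TLX3 array, and Meg3 lies under the dotted line with overlapping groups.

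A gene was called when its limma adjusted p, by Benjamini-Hochberg over all probe sets tested, was under 0.05 and its absolute log2 difference at least 1. By that rule Malat1 and Firre were called lower, 2 of the 4 measured, where 5.07% of the 19937 genes were called lower and 1.44% higher. At the adjusted p alone Gas5 passed as well, where 19.4% of genes were lower. Arrays of the groups did not overlap, with TLX3 lower, for Malat1, Firre and Gas5, as for 26.0% of all genes. Since the members were chosen with this comparison in view, nothing is read from these counts. The same shares over all genes are the background for the counts in the gene lists below. Those lists too were chosen with earlier results of these data known. Their counts and p-values are therefore a description and no independent test.

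Bright and long transcripts were lower in the TLX3 arrays in general, so each member was set beside genes like it. Around Malat1, 159 genes lay within 0.5 log2 units of its mean level, with a median difference of -0.16, and 0 of them were as low. Of 2880 genes at the level of Firre, with a median of -0.20, 5 were as low. Of 84 genes at the level of Gas5, with a median of -0.12, 8 were as low. The median difference of 4074 genes at the level of Meg3 was 0.28, equal to that of Meg3. Gene length moved with the groups as well: among genes above the median level the median difference was 0.10 in the shortest of 5 length groups and -0.40 in the longest. Malat1 (6983 bases) and Gas5 (3939 bases) belong to the shortest, and Firre (72202 bases) to the longest. Of 1989 other genes in the same length group, 27 had a difference as low as Malat1, 183 as low as Gas5 and 1 as low as Firre. Over all genes the median was 0.11, and it was 0.04 with a renewed quantile normalization and 0.00 with cyclic loess.

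Among the long noncoding RNA genes that the RefSeq gene table marks as such, 675 were measured. In the order of their differences Firre stood at place 1, Malat1 at place 6, Gas5 at place 46 and Meg3 at place 334. The class as a whole was not lower: without the 4 members, 30 of 671 were called lower (4.47%) and 23 higher (3.43%), with a median difference of 0.29, against 4.88% and 1.26% of 18552 protein-coding genes and a median of 0.10. Of the 157 above the median level, 18 were called lower and 13 higher, with a median of 0.23, where 731 and 106 of 9610 protein-coding genes were and the median was -0.17. The genes next to Firre and Malat1 in that order, 4931406H21Rik (-2.80), Tbrg3 (-2.67), Airn (-2.58) and Phxr4 (-2.29), were called lower too. At the other end Gm10874 (2.09) and AY512931 (1.64) were called higher.

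**Figure D2:**
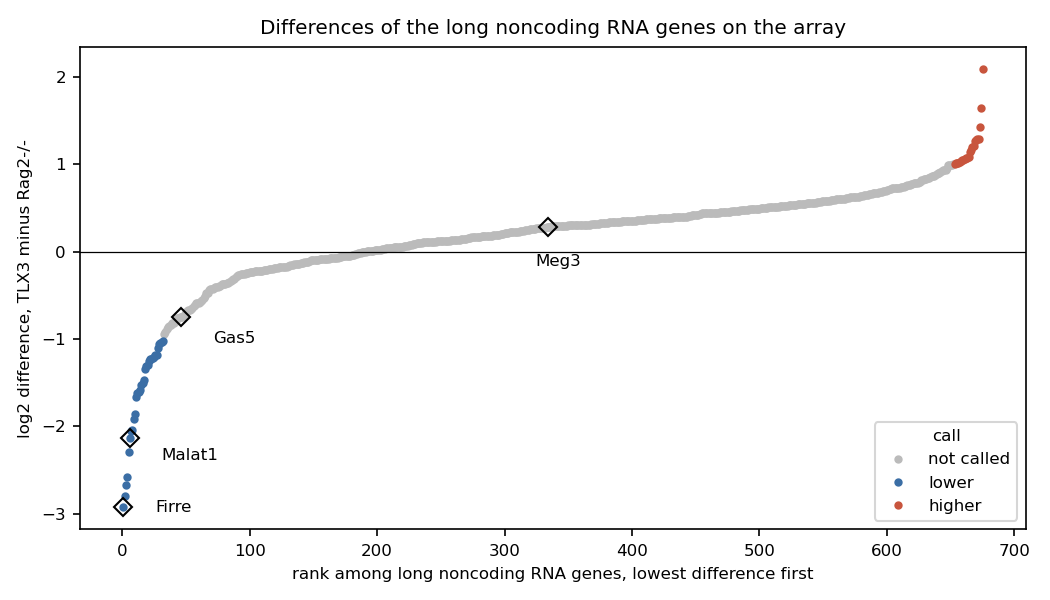
The log2 difference, TLX3 minus Rag2-/- (vertical axis), is plotted for 675 long noncoding RNA genes against their rank from the lowest difference (horizontal axis), coloured by call, with the 4 members as open diamonds. Firre is at place 1 and Malat1 at place 6, Gas5 sits at place 46 among genes that were not called, and Meg3 sits near the middle.

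From a list of 29 other well-known long noncoding RNAs, 14 were measured, of which 4 were called lower, 0 higher and 10 not (limma). The 4 were Airn, the imprinted antisense transcript of Igf2r (-2.58 ± 0.20 SE, adjusted p = 7.4e-05), Lncpint, a p53-linked RNA (-2.04 ± 0.15 SE, adjusted p = 7.4e-05), Mirt1 (-1.47) and Mir17hg, the host transcript of the miR-17 cluster (-1.21). A second probe set of Mirt1 gave -1.44. Airn read 8.94, 8.96 and 9.28 in the Rag2-/- arrays and 6.14, 6.40 and 6.89 in the TLX3 arrays. Of the 10 others, Tug1 stood at -0.59, Norad, which binds Pumilio proteins, at -0.09 and the telomerase RNA Terc at 0.83. Xist was at 5.14 and 5.06, under the array medians in both groups. The list's median was -0.09, beside 0.11 over all genes.

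Malat1 and Neat1 are RNAs of nuclear bodies, whose proteins were looked at next. Of 16 nuclear speckle genes, 6 were called lower, 0 higher and 10 not, with a median of -0.59. The share called lower was 5.07% over all genes and 7.61% over protein-coding genes above the median level. The 6 were the kinases Clk1 (-1.83 ± 0.14 SE, limma adjusted p = 7.6e-05) and Clk4 (-1.63), which phosphorylate SR splicing factors, the SR protein Srsf5 (-1.58, with a second probe set at -0.87), Pnn (-1.35), the kinase Prpf4b (-1.18) and the speckle scaffold Son (-1.11). Clk1 read 11.36, 11.14 and 11.30 in the Rag2-/- arrays and 9.29, 9.35 and 9.67 in the TLX3 arrays. The other scaffold, Srrm2, was at -0.66, and the SR proteins Srsf1, Srsf2 and Srsf3 were at -0.32, -0.19 and 0.14. Son lost its call without TLX3 replicate 1 (-0.99). None of 14 paraspeckle genes was called in either direction by limma, and their median was -0.47. TLX3 arrays lay below all Rag2-/- arrays for 11 of them, as for 26.0% of all genes. Of the proteins that pack Neat1, Pspc1 (-0.92) and Sfpq (-0.44) were among the 11, and Nono (-0.10) overlapped. Of the 14, 8 were lower at an adjusted p under 0.05 alone, as were 19.4% of all genes. The shares of 26.0% and 19.4% also count dim genes, while all 14 had both means above the array medians. Genes above the median level were lower in general, with a median difference of -0.16.

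For Firre the comparison list held genes that anchor chromatin. Of 9, Nipbl, which loads cohesin, was called lower (-1.15) and 8 were not called, with a median of -0.17. Nipbl lost its call without TLX3 replicate 1 (-0.92) and with arrays weighted by quality (-0.99). Hnrnpu, the partner of Firre, stood at -0.17, the insulator Ctcf at 0.20 and the cohesin subunit Rad21 at -0.04. TLX3 arrays lay below all Rag2-/- arrays for 3 of the 9, Nipbl, Safb (-0.52) and the cohesin subunit Smc3 (-0.51). The genes measured nearest to Firre on the X chromosome did not share its difference: Stk26, a kinase gene, was at 0.14 ± 0.14 (SE) and Frmd7 at 0.30, while the olfactory receptors Olfr1323 and Olfr1324 were at 0.35 and 0.72. Apart from Stk26 these neighbours lay under the array medians in both groups, and none was called. Near Malat1, Frmd8 was at -0.58, Slc25a45 at -0.19, Ltbp3 at 0.13 and Znrd2 at 0.34, and again none was called.

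Gas5 has snoRNAs in its introns, and 1 of them had a probe set of its own. Snord47, which lies inside Gas5 in the gene table, read 7.24, 7.38 and 6.96 in the Rag2-/- arrays and 7.58, 7.43 and 6.88 in the TLX3 arrays. The groups overlapped, with a log2 difference of 0.10 ± 0.20 (SE, limma adjusted p = 0.693). Within an array, Snord47 minus the Gas5 probe set 10351026 was -4.98 ± 0.12 (SD, n = 3) among Rag2-/- arrays and -4.13 ± 0.48 among TLX3 arrays, with no overlap between -5.10 to -4.86 and -4.65 to -3.72. Probe set 10351026 was thus lower relative to Snord47 in every TLX3 array, by 0.85 on average. This holds for 1 of the 4 Gas5 probe sets, and the part of Gas5 that it covers was not analysed here. The others, 10351035, 10351037 and 10351039, differed by -1.71, -0.46 and -0.67 between the groups. Their distance from Snord47 was not analysed here. The signal range was narrower in the TLX3 arrays, with an interquartile range of 2.47 to 2.85 against 3.09 to 3.18. TLX3 replicate 1 had both the narrowest range and the shortest distance, -3.72. A narrower range can shorten such a distance, and its part here was not tested. Snord22, which lies inside the unmeasured Snhg1, was at 10.63 and 10.44, a difference of -0.19 ± 0.21 (SE, limma adjusted p = 0.471). Its arrays overlapped too, with TLX3 replicate 3 lowest at 9.93. These 2 do not stand for the class. Of 53 snoRNA genes measured, 13 were called lower (24.5%) and 2 higher, with a median difference of -0.49. Beside Snhg1, Wdr74, a ribosome assembly factor, was at 0.67 and the amino acid transporter subunit Slc3a2 at 0.14, and neither was called. Next to Gas5, the zinc finger gene Zbtb37 was called lower, at 8.02, 8.08 and 7.99 against 5.62, 5.89 and 6.39 (-2.06 ± 0.19 SE, limma adjusted p = 0.000155), with its TLX3 mean under the array medians. Cenpl (-0.07) and Serpinc1 (0.11) on either side were not called.

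Other snoRNA host genes did not move together. Of 5 measured from a list of 18, Snhg11 was called lower on its main probe set (-1.52), while its other probe set stood at 0.52, and 4 were not called. Snhg17 was at -0.51, Snhg16 at -0.24, Snhg5 at -0.23 and Snhg15 at 0.44. Of 12 factors of nonsense-mediated decay, the route that degrades spliced Gas5, 2 were called lower and 0 higher, with a median of -0.13. These were Upf2 (-1.22), an adaptor of the helicase Upf1, and the kinase Smg1 (-1.09), whose call was lost without TLX3 replicate 1 (-0.86), with a renewed quantile normalization (-0.99), with array weights (-0.88) and with cyclic loess (-0.97). Upf1 itself stood at -0.05 and Eif4a3, of the exon junction complex, at 0.88, and it was called higher at 1.08 with a renewed quantile normalization and at 1.06 with cyclic loess. Of 18 translation genes whose messages begin with a pyrimidine run, as Gas5 does from its downstream start, none was called and the median was -0.04. At the limma adjusted p alone, 3 of them were lower and 3 higher, with Rps3 at -0.70 and Eef1a1 at 0.47. Of the 28192 probe sets tested, 5142 were lower and 6922 higher at that p alone. Gas5 is known to bind the glucocorticoid receptor. None of the 12 genes of that receptor and its targets was called, with a median of -0.21, the receptor gene Nr3c1 at -0.02 and the target Tsc22d3 at -0.72. At the limma adjusted p alone Tsc22d3, Bcl2l11 (-0.84) and Ddit4 (-0.47) were lower and Fkbp4 (0.43) was higher.

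**Figure D3:**
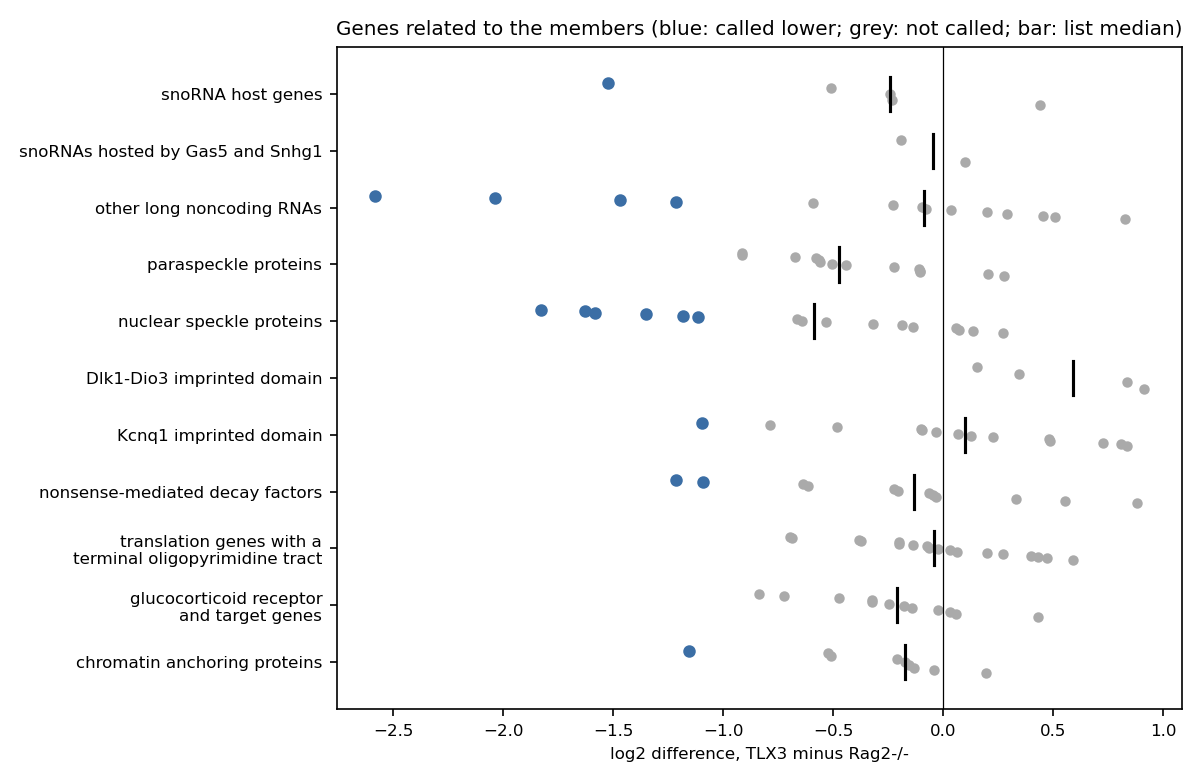
The log2 difference, TLX3 minus Rag2-/- (horizontal axis), is plotted for each measured gene of 11 lists related to the members (1 row a list), with called genes in blue, others in grey and the list median as a bar. The called genes are all on the lower side, and 6 of the 15 are among the 16 nuclear speckle genes measured. The lists were chosen with earlier results of these data known, so the counts are a description. Over all genes 5.07% were called lower.

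Meg3 lies in an imprinted domain whose genes were mostly low on these arrays. Between Dlk1 and Dio3, the ends of that domain, 46 other genes were measured, 40 of them microRNA genes, and 33 had both group means under every array median. The median difference was 0.37, where genes at the level of Meg3 had a median of 0.28. Mir411 (1.38), Mir323 (1.19), Mir434 (1.10) and Mir412 (1.06) were called higher, and 0 were called lower. Over all genes 1.44% were called higher and 5.07% lower. The means of these microRNA genes were under every array median in both groups, where a value may be background. Dlk1, a Notch-related ligand, read 6.39, 6.45 and 6.54 in the Rag2-/- arrays and 7.42, 7.35 and 7.13 in the TLX3 arrays, without overlap. Its difference of 0.84 ± 0.13 (SE, limma adjusted p = 0.00148) was below the minimum for a call, as was that of Dio3 (0.91), which was called higher without Rag2-/- replicate 1 (1.06). The means of Dio3, 4.72 in the Rag2-/- and 5.63 in the TLX3 arrays, were both under the array medians. Rian, the noncoding RNA downstream of Meg3, was at 4.22 and 4.57. In the Kcnq1 domain 14 genes were measured, with a median of 0.10, and 8 of the Rag2-/- means and 5 of the TLX3 means were under the array medians. Cd81, a tetraspanin of the cell surface, was called lower (-1.10, but not with a renewed quantile normalization, at -0.90, or with cyclic loess, at -0.92). The other 13 were not called, and they did not move one way: at a limma adjusted p under 0.05 alone, 5 were higher and 2 lower. At that p alone, 6922 of the 28192 probe sets tested were higher and 5142 lower. The CDK inhibitor Cdkn1c was at 0.73, Phlda2 at 0.83, Th at 0.81, Slc22a18 at 0.48 and Kcnq1 at 0.49, while Tspan32 was at -0.79 and Igf2 at -0.48. Ascl2 (-0.03), Tssc4 (0.07) and Osbpl5 (-0.10) did not pass.

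The genes whose profile over the 6 arrays was most like that of a member were found among 9968 genes above the median level, by Euclidean distance between profiles centred on their own mean. Those nearest to Malat1 were Cfp, properdin of the complement system (distance 0.15, difference -2.13), and the glutamate receptor gene Gria3 (0.17, -2.06). Nearest to Firre were Airn (0.58, -2.58) and Tbrg3 (0.66, -2.67), both noncoding too. Nufip2 (0.07, -0.78) and Gcdh (0.09, -0.70) were nearest to Gas5. Gm10575 (0.25, 0.44) and Snord33 (0.32, 0.42) were nearest to Meg3. With 2 groups of 3, such likeness mostly reflects a similar difference between the groups.

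Markers of other cells moved with the groups. All 12 myeloid and dendritic markers were called lower, and the log2 of their summed level ran from 12.87 to 13.18 in the Rag2-/- arrays and from 9.40 to 9.62 in the TLX3 arrays, where 10 of 12 lay under the array medians. So were 6 of 10 thymic epithelial markers (12.52 to 13.43 against 9.93 to 10.29) and 6 of 8 NK markers (11.13 to 11.39 against 9.26 to 9.71). Of 10 stromal markers 2 were lower, of 4 B-lineage markers 0 and of 2 erythroid markers 1. The share called lower over all genes was 5.07%. T-lineage markers were present in both groups, as Cd3g showed at 13.09 to 13.14 and 12.63 to 12.78, although 3 of 10, Cd7, Il2ra and Ptcra, were called lower. They too were mostly lower, with a median difference of -0.57. For 8 of the 10 every TLX3 array lay below every Rag2-/- array, as for 26.0% of all genes, and for 1 every TLX3 array lay above. The part of these cells in the levels of Firre, Malat1 and Gas5 was not tested, and in bulk RNA fewer cells of a type and less RNA per cell cannot be told apart. TLX3 arrays also had the narrower signal range, with an interquartile range of 2.47 to 2.85 against 3.09 to 3.18, whose part was not tested beyond the rescalings. Under every rescaling, filter, weighting and left-out array, Firre lay between -3.24 and -2.67 and Malat1 between -2.30 and -1.99.

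**Figure D4:**
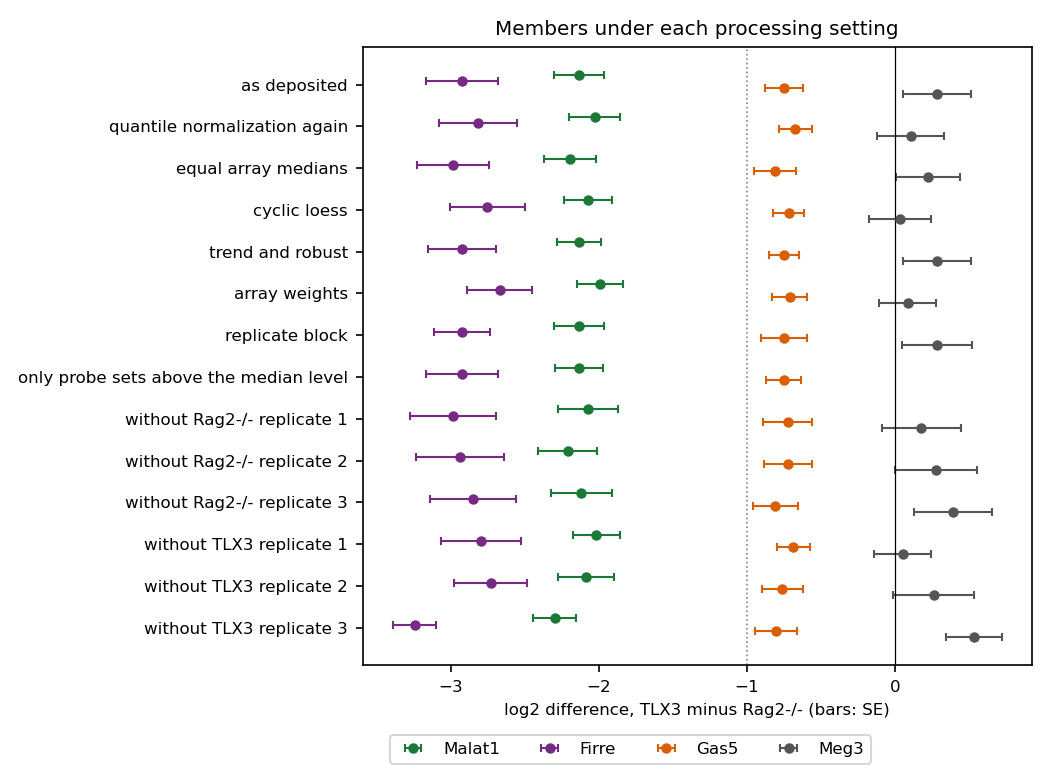
The log2 difference with its SE (horizontal axis) is plotted for the 4 members under each processing setting (vertical axis), with dotted and solid lines at -1 and 0. Firre and Malat1 stay below -1 in every setting, Gas5 stays between -1 and 0, and Meg3, which the filter on dim probe sets leaves out, runs from 0.04 to 0.53.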

How the data were processed

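The authors deposited RMA values on a log2 scale, which the submitters' processing notes credit to affy and R 2.9.0. No genome build is named in the sources. Of 34760 probe sets, 6568 without a listed gene, whose numbers precede those in genome order, were treated as controls and left out. The other 28192 were tested with limma 3.58.1 in R 4.3.3 (lmFit and eBayes, two-sided, no covariate), with Benjamini-Hochberg adjustment over all of them. Of these, 21640 carry 1 symbol, 1321 several and 5231 none. Gene lengths, order and classes come from RefSeq on GRCm38.p6, as do the start windows, of which 6 of the 7 members have at least 1. The fit was tested on simulated data. Same-numbered arrays of the groups had correlations of -0.11, 0.06 and -0.00 between their deviations from the group means, so the numbers were not taken as pairs. Members and gene lists were chosen with earlier results of these data known; the comparisons with genes of like level or length and with all long noncoding RNA genes were added after the values were seen. Named genes are the members, the 2 nearest profiles, the measured neighbours, and the called and best-known genes of each list; Prpf4b, Son, the microRNA genes and the other long noncoding RNAs at the ends of the order were named after their values were seen. Alternatives were a renewed quantile normalization, cyclic loess, equal array medians, array weights, limma's trend and robust options, a block for the replicate number, a filter on dim probe sets, averaging the Gas5 probe sets, and leaving out each array. Plots were drawn with matplotlib 3.10.9.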

Additional observations from a re-analysis of the deposited data

How the results depend on the processing

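Malat1, Firre and Gas5 kept their direction and their side of the call rule under every scaling, weighting, filter and left-out array. The mean of its 4 probe sets gave -0.89 for Gas5 in place of -0.75. The filter on dim probe sets removed Meg3. With the replicate number as a block, Firre stood at -2.92 and Malat1 at -2.13, and the same number of members was called, 2. The block changed none of the calls of the 15 listed genes called lower or of Zbtb37; calls of the other genes named were not compared singly. At the adjusted p alone, 5142 probe sets were lower and 6922 higher in place of 1525 and 729, and 3 members passed. Among probe sets above the median level, 384 were higher. Of the listed genes, 0 were called higher, against 1 with a renewed quantile normalization and 1 with cyclic loess (Eif4a3), and 0 to 1 when an array was left out (1 without Rag2-/- replicate 1, Dio3). Leaving out an array gave -3.24 to -2.73 for Firre and -2.30 to -2.02 for Malat1. Cd81, Nipbl, Smg1 and Son lost their calls under 1 to 4 alternatives each. Nipbl, Smg1 and Son all lost theirs without TLX3 replicate 1. That array had the lowest quality weight, 0.24 against 0.62 to 2.12, and the narrowest interquartile range, 2.47. The cause of the lost calls was not tested. The replicate numbers do not mark pairs that the arrays bear out, and samples share only a number. Values under the array medians, as for Meg3, limit what these arrays can show.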
